A study of Mus musculus with 15 samples.

Results

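Chemokines and chemokine receptors were examined in bulk RNA-seq of mouse high-grade neuroendocrine lung tumors. The members were the genes whose symbol is Ccl, Cxcl, Cx3cl, Xcl, Ccr, Cxcr, Cx3cr, Xcr or Ackr followed only by a number. This choice gave 56 of the 55359 genes of the expression matrix, 34 of them ligands and 22 of them receptors. They lay mainly on a few chromosomes, with 14 members on chromosome 11, 13 on chromosome 9, 11 on chromosome 5 and 7 on chromosome 1.

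Chemokines are small secreted proteins that guide migrating cells, above all leukocytes, along a concentration gradient. They act through receptors that span the membrane and signal through G proteins of the Gi class, and one receptor often binds several ligands. Atypical receptors (the Ackr genes) bind chemokines without this G protein signal and take them up, which shapes the gradient. In a tumor, ligands can be made by the tumor cells or by the host's fibroblasts, endothelium and leukocytes, and most receptors are carried by leukocytes.

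The tumors came from QKO mice, which lack 4 tumor suppressor genes in the cells that Cre reaches, among them Rb1, Rbl1 and Trp53. Rbl1 is null in the whole animal and so is shared by the hosts of the allografts, while Rb1 and Trp53 are floxed and lost through Cre. Ad-CMVcre, an adenovirus with Cre recombinase under a promoter active in most cells, gave the tumor behind the adherent large cell neuroendocrine carcinoma line 46LCNEC. Ad-K5cre, in which the keratin 5 promoter of basal cells drives Cre, gave the tumor behind the small cell lung cancer line 57SCLC, which grows in suspension. The 15 samples fell into 5 groups of 3. The group 46LCNEC_cell held 3 dishes (A, B and C) at passage 17 and 57SCLC_cell held 3 flasks (A, B and C) at passage 11. Tumors grown from the same lines under the skin of immunocompetent QKO mice, injected in Matrigel, formed 46LCNEC_allo (tumors 312, 319 and 321) and 57SCLC_allo (tumors 275, 316 and 317). The group Lung held the lungs of 3 littermates (CT3, CT4 and CT5), whose own genotype the labels do not give, although control lungs in the study's methods carry the null Rbl1 and the floxed alleles. Each line is 1 culture from 1 primary tumor, so p-values measure the spread among these dishes, flasks, tumors and lungs and not that among tumors of a type. An allograft mixes tumor cells with host cells, and the cultures of the same line show what was transcribed outside a host. In such bulk samples fewer cells of a type and less RNA per cell cannot be told apart.

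Between 9480244 and 44876572 reads were counted per library, with a median of 26502525. The level of a gene is given throughout as its normalized count, which is its reads divided by the size factor of the library. All groups carried reads of the deleted genes Rb1, Rbl1 and Trp53, and these counts of whole genes do not check the deletions. The labels were checked against markers. The summed level of 5 neuroendocrine markers (Chga, Syp, Scg3, Elavl3 and Insm1) was 48308 to 68430.3 in 57SCLC_cell and 43938 to 55632 in 57SCLC_allo. It was only 32.3 to 45 in 46LCNEC_cell and 17.9 to 52 in 46LCNEC_allo, below the 151 to 162 of Lung. At the level of RNA these markers thus do not bear out the neuroendocrine label of the 46LCNEC samples. The study itself reports protein staining for NCAM in LCNEC cells and for chromogranin A in LCNEC allografts. Fibroblast markers (Col1a1, Col3a1, Pdgfra, Dcn and Lum) summed to 29197 to 32077 in 46LCNEC_cell, which came mostly from Col1a1, and to 21.7 to 26.7 in 57SCLC_cell. Leukocyte markers (Ptprc, Cd52 and Laptm5) summed to at most 19.3 in any culture. Flask C of 57SCLC_cell stood apart from flasks A and B. A chi-square of its counts against theirs was 144 and 127 per degree of freedom, against 2.80 between A and B, and calls that rest on 57SCLC_cell were made again without it.

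All 10 members without reads were listed at 0 in every sample, namely Ccl2, Ccl6, Ccl19, Cxcl10, Cxcl11, Cxcl17, Xcl1, Ccr10, Cxcr6 and Ackr4. The broadly expressed genes B2m, Srsf2 and Cox17 were also listed at 0, so a 0 in all samples is not read as absence of the transcript. The other 46 members had reads in at least 1 sample. Exon bases of 10 members are shared with another gene of the matrix, and the strand setting of the counting is not given in the sources used here. Among members described below this touches Ccl25, which shares 604 bases with Elavl1, Cxcl16, which overlaps Med11 and Zmynd15, Cx3cr1 and Cxcr5, and their levels are uncertain to that extent.

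**Figure D1:**
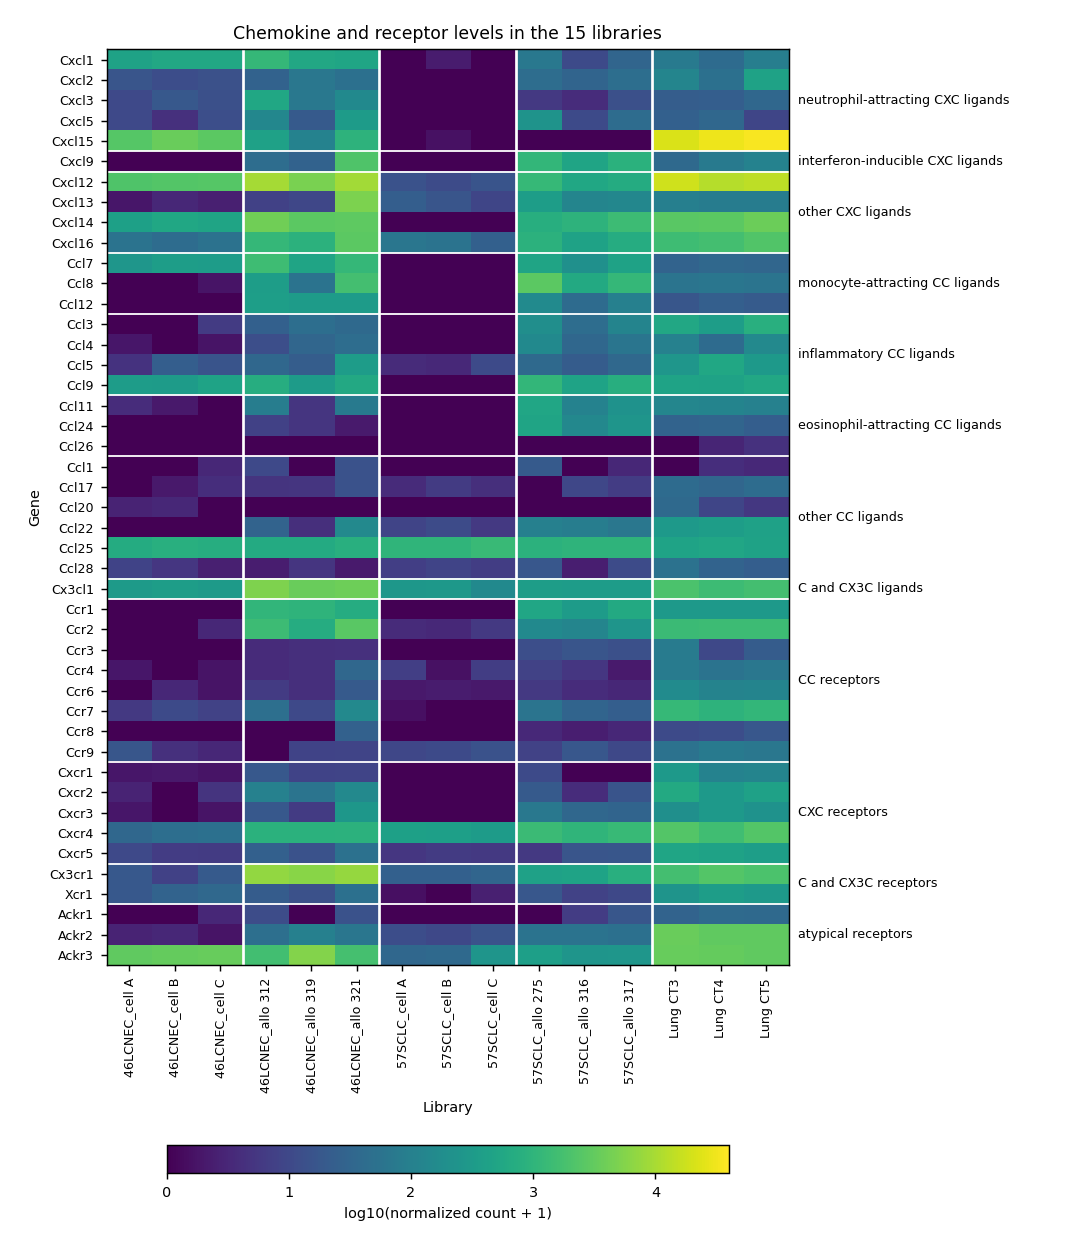
Level of 45 chemokine and chemokine receptor genes with reads in the 15 libraries. Color gives log10(normalized count + 1), rows are genes grouped by role and columns are libraries grouped as 46LCNEC cells and allografts, 57SCLC cells and allografts, and Lung; the cultured 57SCLC columns are the emptiest, and Lung is the fullest.

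Lung and the allografts carried a broad chemokine program and the cultured cells a narrow one. A mean of at least 10 normalized counts was reached by 25 ligands and 19 receptors in Lung. In 46LCNEC_allo 21 ligands and 14 receptors reached it, and in 57SCLC_allo 20 and 14. Only 12 ligands and 4 receptors did so in 46LCNEC_cell, and 5 and 5 in 57SCLC_cell. The summed normalized count of all ligands was 54018 ± 6337 (SD, n = 3) in Lung, 24690.1 ± 9327 in 46LCNEC_allo, 8735 ± 3130.3 in 57SCLC_allo, 8156 ± 984 in 46LCNEC_cell and 1458 ± 56.8 in 57SCLC_cell. Receptors summed to 15598 ± 739, 14928 ± 1550.1, 3732 ± 721, 3298 ± 218 and 551 ± 93 in the same order.

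A few genes made up most of each group's total. Per kilobase of exon, the level at which genes can be compared with each other, Cxcl15 (a chemokine of lung epithelium that attracts neutrophils) held 70.7% of all ligand level in Lung and 49.5% in 46LCNEC_cell. Exon lengths are from GENCODE M39 and the counts from GENCODE M27, so shares per kilobase are approximate where the gene models differ. In 46LCNEC_allo the leading ligands were Cxcl13 with 15.4%, Ccl8 with 14.6% and Ccl7 with 13.8%, an order that rests on tumor 321. Without tumor 321 the share of Cxcl13 was 0.103% and that of Ccl8 6.32%, and Ccl7 led with 19.3%, followed by Cx3cl1 with 17.2%. In 57SCLC_allo Ccl8 alone held 50.5%. The ligand level of 57SCLC_cell was low and consisted mainly of Ccl25 with 47.4% and Cx3cl1 with 31.7%. Among receptors per kilobase, Ackr3 (an atypical receptor that removes Cxcl12) held 90.3% in 46LCNEC_cell and Cxcr4 (the signaling receptor of Cxcl12) held 88.8% in 57SCLC_cell. Cx3cr1, the receptor of Cx3cl1 on monocytes and macrophages, led 46LCNEC_allo with 45.9%, and Cxcr4 led 57SCLC_allo with 56% and Lung with 26.6%.

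The first comparison asked what the cultures of each line transcribed outside a host. Leukocyte markers were near absent there, while fibroblast markers were high in the 46LCNEC dishes, and the cells they came from were not tested. The 46LCNEC cells carried 7 ligands and 2 receptors at higher levels than the 57SCLC cells, and the 57SCLC cells carried more Cxcr4. Here and below a gene was called where limma's adjusted p over all genes tested was at most 0.01 and the log2 fold change of (normalized count + 1) was at least 1 in size, a scale that understates the change of low genes. Of the 56 members, 14 passed the filter on low values. Log2 fold changes between the cultures are 57SCLC_cell over 46LCNEC_cell. Called higher in 57SCLC_cell was 1 member, while 23.9% of all genes tested were called higher. Called lower were 9 members, while 22.2% of all genes were. Members that passed the filter only through the 46LCNEC dishes could not be called higher in 57SCLC_cell, so these counts partly follow from the filter.

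Among the ligands, Cxcl12 (chromosome 6, 117144945 to 117158328, plus strand, GRCm39), which binds Cxcr4 and Ackr3, stood at 2124, 2386 and 2462 normalized counts in the 46LCNEC dishes. In the 57SCLC flasks it stood at 13.6, 10.3 and 14.6. Every 46LCNEC dish was far above every 57SCLC flask, with means 181-fold apart (log2 fold change -7.4 ± 0.16 (SE), limma adjusted p = 1.07e-08). Cxcl14, a ligand of epithelium and stroma whose signaling receptor is debated, was at 408, 539 and 477 in the 46LCNEC dishes and had no read in any 57SCLC flask, which makes it at least 856-fold lower there (log2 fold change -8.88 ± 0.21 (SE), limma adjusted p = 1.34e-08). A bound of this kind sets 3 reads over the group against the group without reads and covers counting error only. The Ccr1 ligand Ccl9 and the monocyte-attracting ligand Ccl7 also had no read in the 57SCLC flasks. Ccl9 was at 347, 337 and 461 in the 46LCNEC dishes (at least 688-fold higher, log2 fold change -8.57 ± 0.22 (SE), limma adjusted p = 1.96e-08). Ccl7 was at 256, 364 and 344 (at least 579.5-fold higher, log2 fold change -8.32 ± 0.23 (SE), limma adjusted p = 2.47e-08). The lines did not overlap in these 4 ligands, which were named for their calls, so this adds no support to them.

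The neutrophil-attracting CXC ligands formed the largest block of this difference, with 3 of the 5 called lower in 57SCLC_cell. Cxcl15 (chromosome 5, 90942393 to 90950926, plus strand) was at 2431, 3608 and 2777 in the 46LCNEC dishes, and 1 read was counted in 1 of the 57SCLC flasks. The ratio of the means was 15659-fold, with a 95% exact counting interval of 2809.8 to 618562 (log2 fold change -11.27 ± 0.26 (SE), limma adjusted p = 1.29e-08). Cxcl1 was at 447, 569 and 567 in the 46LCNEC dishes against 2 reads over all 57SCLC flasks, a ratio of 1429-fold, with a 95% exact counting interval of 395 to 11811 (log2 fold change -8.66 ± 0.34 (SE), limma adjusted p = 1.63e-07). Cxcl2 was low in the 46LCNEC dishes, at 15, 11 and 13.1, and without a read in the 57SCLC flasks, at least 23.5-fold lower there (log2 fold change -3.8 ± 0.24 (SE), limma adjusted p = 2.04e-06). Cxcl3 and Cxcl5, at 9.38, 17.7 and 12.3 and at 9.38, 3.31 and 11.5 in the 46LCNEC dishes and without reads in 57SCLC_cell, did not pass the filter. The neutrophil receptors Cxcr1 and Cxcr2 were close to silent in both cultures, at or under 3.84 normalized counts in every dish and flask.

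The neutrophil-attracting ligands lie close together on chromosome 5. The stretches just before the starts of 4 of them are shown because Cxcl15 and Cxcl1 were the most unequal members between the cultures that had reads in both. RefSeq promoter windows were found for 41 members, and all 43 windows matched once in GRCm39. The windows and motifs were chosen after the expression values were seen. Each sequence runs 5′ to 3′ on the gene's strand and ends before the GENCODE start of the gene, and capitals mark matches to the NF-kB motif, a binding sequence of a factor known to induce inflammatory chemokines.
Cxcl1 (chr5:91038984-91039093, plus strand): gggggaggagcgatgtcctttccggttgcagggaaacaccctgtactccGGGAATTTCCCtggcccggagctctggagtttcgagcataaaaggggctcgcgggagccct
Cxcl2 (chr5:91051638-91051729, plus strand): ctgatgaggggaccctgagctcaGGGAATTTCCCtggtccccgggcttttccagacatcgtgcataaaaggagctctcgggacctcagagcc
Cxcl3 (chr5:90933840-90933959, plus strand): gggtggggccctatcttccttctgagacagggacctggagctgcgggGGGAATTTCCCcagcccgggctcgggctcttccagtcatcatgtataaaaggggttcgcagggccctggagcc
Cxcl15 (chr5:90942273-90942392, plus strand): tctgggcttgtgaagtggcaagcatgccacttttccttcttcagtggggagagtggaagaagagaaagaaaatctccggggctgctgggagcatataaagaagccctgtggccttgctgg
Cxcl1, Cxcl2 and Cxcl3 share the 11 letters GGGAATTTCCC, which begin 71, 97 and 73 bases before the RefSeq start. That start lies 10 and 28 bases past the end of the Cxcl1 and Cxcl2 stretches and directly at the end of the Cxcl3 and Cxcl15 stretches. The Cxcl15 stretch holds no match. TATAAA, the letters of a TATA box, begins 27 bases before the start in Cxcl15 and 30 bases before it in Cxcl3. Over the 250 bases before the start, with both strands read, the NF-kB motif was found in 3.9% of 32851 windows of all genes and in 9 members, TATAAA in 12.4% of all windows, and TTCNNNGAA, the core of sites bound by STAT factors, in 7.02%. A match is a description of the letters, and no measurement here bears on binding.

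Receptors went in opposite directions. Cxcr4 (chromosome 1, 128515936 to 128520044, minus strand) was at 418, 394 and 332 in the 57SCLC flasks and at 33.8, 45.2 and 48.4 in the 46LCNEC dishes. The groups were separated in every library, and the means differed 8.98-fold (log2 fold change 3.15 ± 0.19 (SE), limma adjusted p = 1.62e-06). Its promoter window held 19 CpG pairs in the 250 bases before its start, against a median of 6 over all windows, and no NF-kB match in the stretch shown.
Cxcr4 (chr1:128520045-128520156, minus strand): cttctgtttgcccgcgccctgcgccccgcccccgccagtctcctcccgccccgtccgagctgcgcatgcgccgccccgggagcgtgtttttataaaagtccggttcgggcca
The atypical receptor Ackr3 had the reverse pattern. It was at 2949.8, 3252 and 3351 in the 46LCNEC dishes and at 33.3, 36.8 and 248 in flasks A, B and C of 57SCLC, so flask C stood well above the other flasks of 57SCLC and still far below each 46LCNEC dish (log2 fold change -5.54 ± 0.68 (SE), limma adjusted p = 0.000128). Without flask C the log2 fold change was -6.47 (limma adjusted p = 3.15e-08). Xcr1, the receptor that marks cross-presenting dendritic cells, was low in the 46LCNEC dishes, at 17.8, 28.7 and 34.6, and at 0.545, 0 and 1.56 in the 57SCLC flasks (log2 fold change -4.1 ± 0.41 (SE), limma adjusted p = 3.48e-05).

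Other members were not called between the cultures. Cx3cl1, a membrane-bound ligand of Cx3cr1 also called fractalkine, was at 316, 359 and 327 in the 46LCNEC dishes and at 274, 285 and 153 in the 57SCLC flasks, the last value again being that of flask C (log2 fold change -0.54, limma adjusted p = 0.0655). Without flask C its log2 fold change was -0.25 (limma adjusted p = 0.0521). Cxcl16, at 56.3, 41.9 and 53 and 62.7, 55.5 and 25, was not called either (-0.17, limma adjusted p = 0.674), and without flask C its log2 fold change was 0.23 (limma adjusted p = 0.321). Ccl25, a thymic and gut ligand of Ccr9, was read at 685, 810.1 and 733 and at 1023, 1043 and 1298, with a log2 fold change of 0.59. Without flask C its log2 fold change was 0.479 (limma adjusted p = 0.00204). Both values are under the size asked of a call, and the overlap with Elavl1 leaves them uncertain. In Cx3cl1 and Ccl25 the lines still did not overlap, and in Cxcl16 they did. How many of all genes separate in this way is not given here. Without flask C all 10 members called between the cultures kept their call, from a log2 fold change of -11.16 (limma adjusted p = 1.28e-07) for Cxcl15 to 3.24 (limma adjusted p = 7.91e-06) for Cxcr4. Cxcl13 and Cxcl3 were added, which gave 2 higher in 57SCLC_cell and 10 lower. Both had failed the filter with all flasks and entered because it asked for only 2 samples once 1 was left out. Under the same looser filter, leaving out any 1 dish of 46LCNEC_cell gave 3 called higher, and leaving out flask B gave 2.

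**Figure D2:**
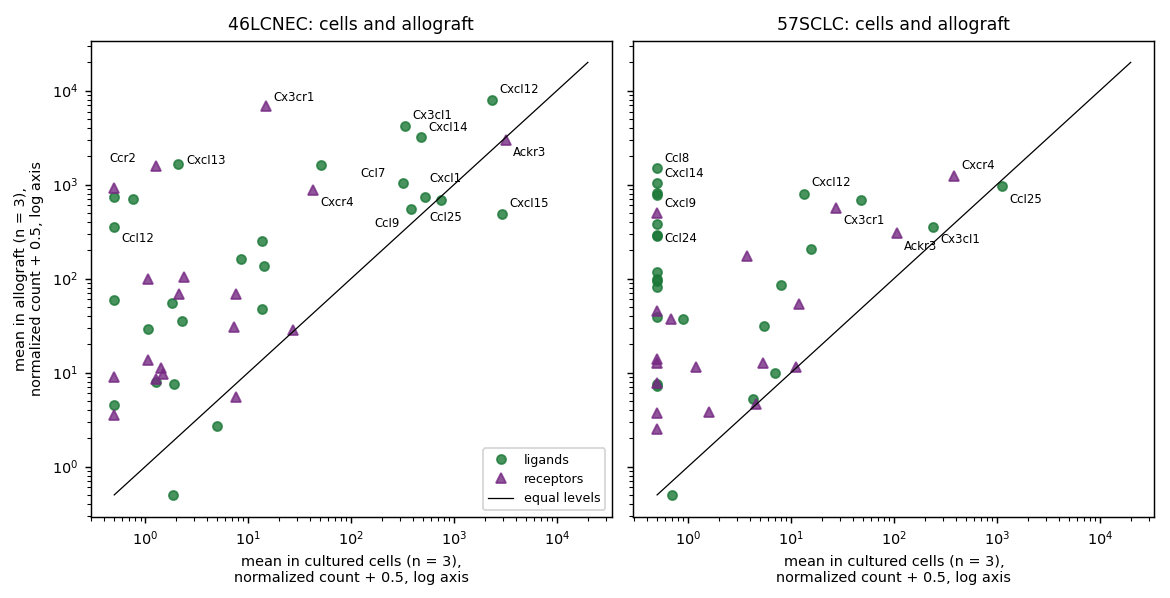
Mean level in cultured cells (horizontal) against mean level in allografts of the same line (vertical) for 46LCNEC (left) and 57SCLC (right), as normalized count + 0.5 on log axes with n = 3 for each mean. Circles are ligands, triangles are receptors and the line marks equal levels; most points lie above the line in both panels, and in the 57SCLC panel 12 ligands with a mean of at least 10 in the tumors lie at 0 in the cells.

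The second question was which members appeared once the cells grew in a host. In the 46LCNEC allografts the receptors Ccr2 and Ccr1 and the ligands Ccl12 and Ccl8 rose from nearly no reads to high levels. The receptor Cx3cr1 rose from a low level, while Cxcl15 fell. Of the 28 members that passed the filter, 17 were called higher than in 46LCNEC_cell, while 14.4% of all genes tested were called higher, and 1 was called lower, while 8.45% of all genes were. Of the ligands and receptors with a mean of at least 10 in the tumors, 9 and 10 had a mean under 10 in the dishes. Members that passed the filter only through the tumors could not be called lower, so these counts partly follow from the filter. Over the 45 members with a read the median log2 fold change was 2.43, or 2.51 with members that had no read in the dishes or tumors set at their bound, against -0.006 over all genes with a read. Leukocyte markers moved with this comparison, from 9.38, 5.52 and 1.54 in the dishes to 6038, 4328 and 9526 in tumors 312, 319 and 321, with all 3 markers called higher. Macrophage markers (Adgre1, Csf1r, C1qa, C1qb and Cd68) went from 357, 329 and 384 to 35567, 24735 and 56987, all 5 called higher. Endothelial markers (Pecam1, Cdh5, Kdr and Tie1) went from 333, 385 and 321 to 8946, 5231 and 7825, all 4 called higher, and fibroblast markers from 30048, 29197 and 32077 to 515619.8, 589942 and 283706, all 5 called higher. Neutrophil markers (S100a8, S100a9, Csf3r and Ly6g) went from 1.88, 0 and 3.08 to 821, 501 and 1928, with the 3 tested called higher. Markers of several cell types thus moved together. The part of these cells in the change of any member was not tested.

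Among the receptors, Cx3cr1 (chromosome 9, 119877749 to 119898945, minus strand) was at 17.8, 6.62 and 19.2 in the 46LCNEC dishes and at 7013, 6077 and 7513 in the tumors. It was the most abundant receptor of these tumors and high in each of them (472-fold higher, log2 fold change 8.91 ± 0.37 (SE), limma adjusted p = 6.37e-06). Ccr2, which brings monocytes out of the bone marrow, had 3 reads over the dishes and stood at 1404, 704 and 2646 in the tumors, a ratio of 1723-fold, with a 95% exact counting interval of 589 to 8359 (log2 fold change 9.85 ± 0.64 (SE), limma adjusted p = 3.59e-05). Ccr1, a receptor of monocytes and neutrophils, had no read in the dishes and stood at 1056, 973 and 717, at least 998-fold higher (log2 fold change 9.82 ± 0.29 (SE), limma adjusted p = 4.16e-06). Each tumor was far above each dish in all of these receptors. Unlike Ccr2 and Ccr1, Cxcr4 was already present in the dishes, and it reached 849, 882 and 907 in the tumors (20.7-fold higher, log2 fold change 4.36 ± 0.19 (SE), limma adjusted p = 8.03e-06). Cxcr2 and the atypical receptor Ackr2, which clears inflammatory CC ligands, also rose (log2 fold changes 5.33 and 4.71). Ackr3 did not move with the others, since the tumors, at 1583, 5585 and 1770.0, lay on both sides of the dishes (log2 fold change -0.35, limma adjusted p = 0.535).

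Ligands fell into those the dishes lacked and those they already made. Ccl12, a mouse ligand of Ccr2, had no read in the dishes and stood at 385, 327 and 339 in the tumors, at least 382-fold higher (log2 fold change 8.45 ± 0.30 (SE), limma adjusted p = 5.77e-06). Ccl8, at 1 read over the dishes, stood at 360.3, 54.7 and 1714 and so varied widely among the tumors, the ratio of the means being 2349-fold, with a 95% exact counting interval of 421 to 92845 (log2 fold change 8.07 ± 1.12 (SE), limma adjusted p = 0.00101). Cxcl9, a ligand of Cxcr3 induced by interferon gamma, had no read in the dishes and stood at 43.7, 27.4 and 2118, with nearly all of it in tumor 321. It was at least 796-fold higher in the mean and was called (log2 fold change 7.12 ± 1.5 (SE), limma adjusted p = 0.00627), and the call was lost with edgeR, with a pseudocount of 5 and whichever dish was left out. Of the ligands already present in culture, Cxcl12 rose to 9721, 4633 and 9258 (3.39-fold, log2 fold change 1.69 ± 0.27 (SE), limma adjusted p = 0.00199), a call lost whichever dish was left out. Cxcl14 rose to 4089, 2772 and 2879.6 (6.84-fold, log2 fold change 2.76 ± 0.18 (SE), limma adjusted p = 3.95e-05). Cx3cl1 (chromosome 8, 95498637 to 95509055, plus strand) rose to 5168, 3555 and 3854 (12.6-fold, log2 fold change 3.63 ± 0.16 (SE), limma adjusted p = 7.39e-06), and each tumor was above every dish. Cxcl16, the ligand of Cxcr6, rose to 1174, 886 and 2756 (4.8 on the log2 scale, limma adjusted p = 0.000111).

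Cxcl15 was the single member called lower. It was at 425, 108 and 930.4 in tumors 312, 319 and 321 against 2431, 3608 and 2777 in the dishes, so each tumor lay below each dish (log2 fold change -3.04 ± 0.69 (SE), limma adjusted p = 0.00846). The call was lost with edgeR, without tumor 312 and whichever dish was left out. The other neutrophil-attracting ligands did not follow it. Cxcl1 was at 1158, 568 and 496 in the tumors and overlapped the dishes (log2 fold change 0.39, limma adjusted p = 0.323), and Cxcl3 rose to 539, 69.5 and 152 (log2 fold change 3.71 ± 0.70 (SE), limma adjusted p = 0.00387), a call lost whichever dish was left out. Ccl7 was at 1506, 476 and 1168 and was not called (1.57, limma adjusted p = 0.0149), although it was with DESeq2, in 1 model of all 15 samples and without tumor 319, where it was at 2.06 (limma adjusted p = 0.000321). Ccl9, at 721, 336 and 591, was not called (0.47, limma adjusted p = 0.212).

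The level in the dishes as a share of that in the tumors sorts the members further. Of the 21 ligands with a mean of at least 10 in 46LCNEC_allo, 4 stood in culture at 50% or more of their tumor level, 5 at 10% to 50% and 12 below 10%. Of the 14 receptors, 2 stood at 50% or more, 2 at 10% to 50% and 10 below 10%. Choosing members by their level in the tumors favors low shares in culture, and the same shares over all genes are not given here. Cxcl12 stood at 29.5%, Cxcl14 at 14.6%, Cx3cl1 at 7.96% and Ackr3 at 107% of the tumor mean. Cx3cr1 stood at 0.212%. Whether tumor cells keep the level they have in culture when they grow in a host cannot be told from these bulk samples.

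Most members seen in the 57SCLC allografts had few or no reads in the cultured cells of this line, and none of those tested was called lower. Of the 28 members that passed the filter, 25 were called higher than in 57SCLC_cell, while 14.4% of all genes tested were called higher. Called lower were 0 members by limma, edgeR or DESeq2, and 0 at an unadjusted p under 0.05 in limma, while 2.29% of all genes were called lower. Of the ligands and receptors with a mean of at least 10 in the tumors, 15 and 9 had a mean under 10 in the flasks. Members that passed the filter only through the tumors could not be called lower, so these counts partly follow from the filter. Over the 44 members with a read the median log2 fold change was 3.71, or 4.07 with members at their bound, against 0.002 over all genes with a read. Without flask C all 25 kept their call, none of their log2 fold changes moved by more than 1.5 times, and Ackr3, Cxcl1 and Cxcl5 were added. Cxcl1 and Cxcl5 had failed the filter with all flasks and entered through the filter of 2 samples used when 1 was left out. Leukocyte markers went from 13.6, 19.3 and 13 in the flasks to 3363, 2108 and 3451 in tumors 275, 316 and 317 and macrophage markers from 303, 275 and 281 to 23881, 11349 and 19817, with all 8 called higher. Fibroblast markers went from 26.7, 21.7 and 22.4 to 27677, 23711 and 35969, all 5 called higher, and endothelial markers from 37.1, 35.6 and 44.3 to 3519, 2562 and 3339.7, all 4 called higher. The part of these cells in the members' changes was not tested.

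Of the 20 ligands with a mean of at least 10 in 57SCLC_allo, 12 had no read in any flask. The leading one was Ccl8, which attracts monocytes and other leukocytes, at 2784, 634 and 1144 in the tumors and at least 2742-fold higher (log2 fold change 10.31 ± 0.49 (SE), limma adjusted p = 1.55e-06). Cxcl9 stood at 1101, 483 and 868, and here each of the 3 tumors was high (at least 1474-fold higher, log2 fold change 9.6 ± 0.34 (SE), limma adjusted p = 5.01e-07). Cxcl14 stood at 771, 949.9 and 1439 (at least 1899-fold higher, log2 fold change 9.99 ± 0.29 (SE), limma adjusted p = 3.03e-07). Ccl9, at 1118, 467 and 756 (at least 1407-fold higher, log2 fold change 9.52 ± 0.35 (SE), limma adjusted p = 5.26e-07), and Ccl7, at 488, 201 and 455 (at least 688-fold higher, log2 fold change 8.48 ± 0.38 (SE), limma adjusted p = 1.22e-06), also came from no read. Tumor 316 was the lowest of the tumors in each of these ligands but Cxcl14. The eosinophil-attracting ligands of Ccr3, Ccl24 and Ccl11, came from no read to 491, 139 and 246 and to 522, 108 and 224 (at least 526-fold and at least 513-fold higher, log2 fold changes 8.01 and 7.87), and in both tumor 275 was the highest. Cxcl12 rose from 13.6, 10.3 and 14.6 in the flasks to 1185, 546 and 681 in the tumors (62.7-fold, log2 fold change 5.8 ± 0.30 (SE), limma adjusted p = 2.37e-06).

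The receptors Ccr1, Cx3cr1 and Ccr2 rose here as well. Ccr1 stood at 534, 331 and 625 (at least 896-fold higher, log2 fold change 8.91 ± 0.31 (SE), limma adjusted p = 4.72e-07). Cx3cr1 rose to 433, 471 and 791 (log2 fold change 4.3 ± 0.25 (SE), limma adjusted p = 4.61e-06), and Ccr2 to 148, 122 and 245 (log2 fold change 5.31 ± 0.35 (SE), limma adjusted p = 9.04e-06). Cxcr4, the receptor that the flasks already carried, rose 3.23-fold to 1393, 1029 and 1272 (log2 fold change 1.68 ± 0.14 (SE), limma adjusted p = 3.56e-05), and its level in culture was 31% of that in the tumors.

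Few members of 57SCLC_allo had a level like that in culture, among members chosen by their level in the tumors. That choice favors low shares in culture, and the same shares over all genes are not given here. Only 2 of the 20 ligands and 1 of the 14 receptors stood in the flasks at 50% or more of their tumor mean, while 17 ligands and 9 receptors stood below 10%. One of these 2 ligands was Cx3cl1, at 359, 345 and 351 in the tumors, or 67.5% in culture (log2 fold change 0.62, limma adjusted p = 0.0654). The other was Ccl25, at 895, 995 and 980.4 (-0.22, limma adjusted p = 0.155). Ackr3 was at 399.8, 252 and 258 in the tumors, close to flask C and well above flasks A and B. It was not called with all flasks (2.12, limma adjusted p = 0.0401) and was called without flask C, at 3.04 (limma adjusted p = 6.59e-05).

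**Figure D3:**
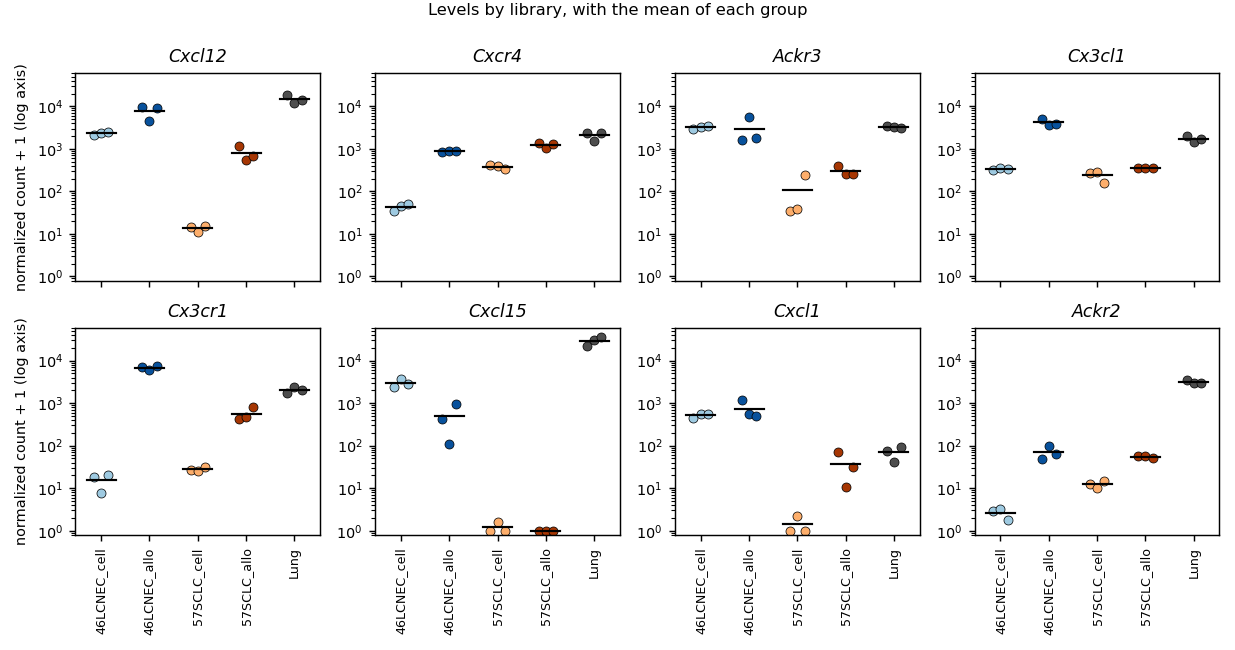
Normalized count of 8 chemokine and receptor genes in each of the 15 libraries, on log axes, by group. Points are single dishes, flasks, tumors or lungs and bars are group means (n = 3); Cx3cl1 and Cx3cr1 are both highest in 46LCNEC_allo, and Cxcl15 and Ackr2 are highest in Lung.

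The change from cells to allograft was then compared between the lines with an interaction term over the 12 samples. It was larger in 57SCLC for 8 members, while 10.8% of all genes tested were called so, and larger in 46LCNEC for 5 members, while 6.78% of all genes were, of 37 members that passed the filter. Without tumor 321 these counts were 11 and 5, and without flask C they were 9 and 5, with 12 of the 13 calls kept and that of Ccr3 lost. Differences are given as the 57SCLC change minus the 46LCNEC change. Cell type markers moved in this comparison too. Of the fibroblast markers 3 of 5 changed more in 57SCLC and 1 more in 46LCNEC, of the endothelial markers 1 of 4 changed more in each line, and 2 of 5 macrophage and 1 of 3 leukocyte markers changed more in 46LCNEC. Their part in the differences was not tested.

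Most members with a larger change in 57SCLC were ligands that 46LCNEC cells carried in culture and 57SCLC cells lacked or nearly lacked. Ccl9 differed most (difference in log2 change 9.05 ± 0.48 (SE), limma adjusted p = 7.8e-08), followed by Cxcl14 (difference in log2 change 7.235 ± 0.33 (SE), limma adjusted p = 2.97e-08) and Ccl7 (difference in log2 change 6.91 ± 0.60 (SE), limma adjusted p = 4.2e-06). Cxcl12 (difference in log2 change 4.11 ± 0.43 (SE), limma adjusted p = 2.23e-05), Cxcl1 (difference in log2 change 4.08 ± 0.83 (SE), limma adjusted p = 0.00256, a call lost with a pseudocount of 5) and Cxcl2 (difference in log2 change 3.61 ± 0.51 (SE), limma adjusted p = 0.000223) followed. For these 6 the levels in the 57SCLC tumors did not exceed those in the 46LCNEC tumors by a called amount in the comparison of the tumors. Ccl24 differed otherwise, since both cultures had no read of it. It stood at 6.62, 4.21 and 1.11 in the 46LCNEC tumors and at 491, 139 and 246 in the 57SCLC tumors (difference in log2 change 5.88 ± 0.75 (SE), limma adjusted p = 9.83e-05), and the call was lost with edgeR. Its receptor Ccr3 was low in all tumors (2.65, 3.16 and 3.32 against 12, 15.6 and 12.5), with a difference of 1.82 that lost its call under 15 of the alternatives, among them the omission of any 1 of the 12 samples.

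On the other side, both partners of the fractalkine axis changed more in 46LCNEC. The difference was -4.61 for Cx3cr1 (limma adjusted p = 2.16e-05) and -3.01 for Cx3cl1 (limma adjusted p = 1.56e-05). Ccr2 (difference in log2 change -4.54 ± 0.79 (SE), limma adjusted p = 0.000914, a call lost with edgeR), Cxcr4 (difference in log2 change -2.67 ± 0.23 (SE), limma adjusted p = 4.68e-06) and Ackr2 (difference in log2 change -2.58 ± 0.50 (SE), limma adjusted p = 0.00197) also changed more in 46LCNEC. For Cxcr4 the cultures differed at the outset, at 42.5 ± 7.71 against 382 ± 44.3 (SD, n = 3), and the tumors were at 879 ± 29.2 and 1231 ± 185.

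**Figure D4:**
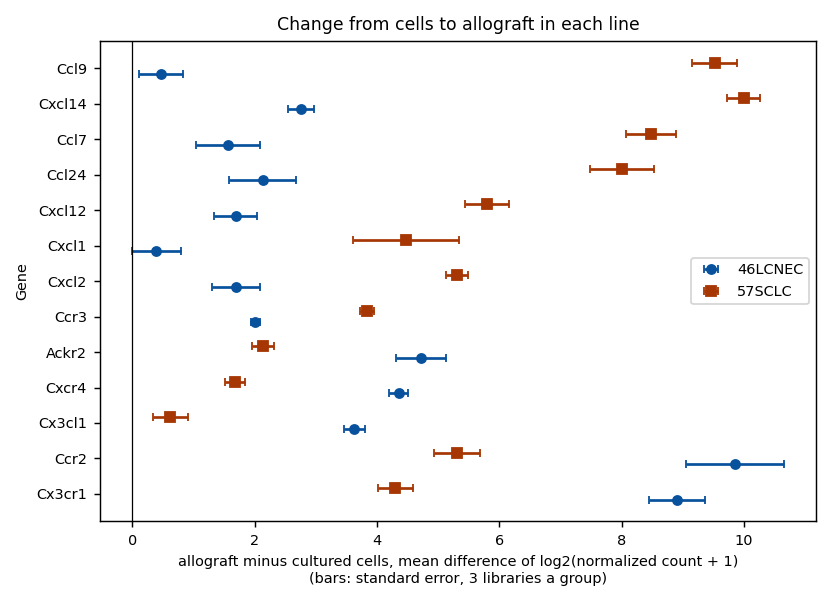
Change from cultured cells to allograft, as the difference of mean log2(normalized count + 1), in 46LCNEC and in 57SCLC for the 13 members whose change differed between the lines. Bars show the standard error of each difference (n = 3 per group); Ccl9, Cxcl14 and Ccl7 changed by several log2 units more in 57SCLC, and Cx3cr1, Ccr2 and Cx3cl1 changed more in 46LCNEC.

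Set against each other as tumors, the allografts differed in 12 members. The 46LCNEC tumors carried more of the fractalkine pair, of Cxcl12 with Ackr3, and of 3 of the 5 neutrophil-attracting ligands, and the 57SCLC tumors carried more Ccl24. Log2 fold changes between them are 57SCLC_allo over 46LCNEC_allo. Of the 36 members that passed the filter, 2 were called higher in 57SCLC_allo, while 16.1% of all genes tested were called higher, and 10 were called lower, while 14.2% of all genes were. Members that passed the filter only through the tumors of a single line could only be called higher in that line, so these counts partly follow from the filter. Cxcl15 had no read in the 57SCLC tumors and was at least 326-fold lower there (log2 fold change -8.46 ± 0.76 (SE), limma adjusted p = 0.000152). Cxcl3 (log2 fold change -4.75 ± 0.83 (SE), limma adjusted p = 0.00283) and Cxcl1 (log2 fold change -4.57 ± 0.70 (SE), limma adjusted p = 0.00156) were lower as well. Cxcl2 (-0.19, limma adjusted p = 0.725) and Cxcl5 (-1.04, limma adjusted p = 0.547) were not called, and Cxcl2 turned sign with scaling by library size only. The receptor Cxcr2 had a log2 fold change of -3.18. The Cxcr2 call was lost with scaling by library size only and whichever of the 6 tumors was left out, and the Cxcl3 call without tumor 275 or 316. Neutrophil markers stood at 821, 501 and 1928 in the 46LCNEC tumors and at 366, 53.8 and 95.3 in the 57SCLC tumors, with 0 of the 3 tested called by limma, 3 at an unadjusted p under 0.05, 0 by edgeR and 3 by DESeq2. Their part in these differences was not tested.

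Cx3cr1 was at 6868 ± 729 in the 46LCNEC tumors and at 565 ± 196 in the 57SCLC tumors (log2 fold change -3.65 ± 0.23 (SE), limma adjusted p = 4.03e-05), and Cx3cl1 was at 4193 ± 858 and 352 ± 6.89 (SD, n = 3; log2 fold change -3.55 ± 0.15 (SE), limma adjusted p = 1.19e-05). The tumors of the lines did not overlap in either gene, which adds no support to the calls. Cxcl12 had a log2 fold change of -3.29 and Ackr3 of -3.07, the latter not called without tumor 316 or 317. Cxcr4 was not called between the tumors (0.47, limma adjusted p = 0.0225). Ccr2 (-3.06) was called and lost its call without tumor 275 or 316, and Cxcl14 (-1.65) was called and lost it without tumor 316. Ccl24 (log2 fold change 5.88 ± 0.65 (SE), limma adjusted p = 0.00037) kept its call whichever tumor was left out. Ccr3 (1.82) lost it with DESeq2, with no filter, in 1 model of all 15 samples and whichever tumor was left out. Fibroblast markers stood at 515619.8, 589942 and 283706 in the 46LCNEC tumors and at 27677, 23711 and 35969 in the 57SCLC tumors, and all 5 were called lower in the latter. Macrophage markers had 2 of 5 called lower. The part of these cells in the differences was not tested.

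Against Lung, the allografts of both lines carried more Ccl7 and Ccl12 and far less Cxcl15 and Ackr2. In 46LCNEC_allo, of 42 members that passed the filter, 6 were called higher than in Lung, while 13.4% of all genes tested were called higher, and 14 were called lower, while 22.1% of all genes were. In 57SCLC_allo, also of 42, 7 were called higher, while 18.9% of all genes were, and 23 were called lower, while 26.9% of all genes were. Members that passed the filter only through the lungs could not be called higher in the tumors, so these counts partly follow from the filter. Both comparisons use the same lungs. Over the 46 members with a read the median log2 fold changes were -1.67 and -2.04, against -0.207 and -0.137 over all genes with a read.

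Ccl7 was at 27.7, 34.9 and 31.6 in the lungs and was called higher in the 46LCNEC tumors (33.5-fold, log2 fold change 4.87 ± 0.43 (SE), limma adjusted p = 0.00014) and in the 57SCLC tumors (12.2-fold, log2 fold change 3.46 ± 0.35 (SE), limma adjusted p = 5.09e-05). Ccl12, at 15.7, 23.9 and 19.9 in the lungs, was called in both as well (log2 fold changes 4.09 and 2.07), the latter lost without tumor 275 or 317 or whichever lung was left out. The 46LCNEC tumors in addition held more Cxcl1 (10.8-fold, log2 fold change 3.39 ± 0.43 (SE), limma adjusted p = 0.000675), Cx3cr1 (3.37-fold, log2 fold change 1.76 ± 0.15 (SE), limma adjusted p = 0.000117), Ccr1 (1.57) and Cx3cl1 (2.46-fold, log2 fold change 1.29 ± 0.18 (SE), limma adjusted p = 0.00099). The 57SCLC tumors held more Ccl8 (25.4-fold, log2 fold change 4.38 ± 0.47 (SE), limma adjusted p = 6.75e-05), Cxcl9 (11-fold, log2 fold change 3.49 ± 0.44 (SE), limma adjusted p = 0.000176), Ccl24 (10.8-fold, log2 fold change 3.21 ± 0.44 (SE), limma adjusted p = 0.000276) and Ccl25 (1.01). The call of Cxcl9 was lost in 1 model of all 15 samples, and that of Ccl25 without tumor 316, tumor 317, CT3 or CT5. Leaving out tumor 317 reduced the members called higher from 7 to 4, and leaving out tumor 319 raised them in 46LCNEC_allo from 6 to 10.

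The allografts went in opposite directions in 3 members when set against the same lungs. Cx3cr1, at 1709, 2385 and 2022 in the lungs, and Cx3cl1, at 1973, 1444 and 1686, were higher in the 46LCNEC tumors and lower in the 57SCLC tumors, at log2 fold changes of -1.89 and -2.26 in the latter. Ccl24, at 27.7, 30.9 and 22.2 in the lungs, was lower in the 46LCNEC tumors (-2.66, a call lost without tumor 319 or whichever lung was left out) and higher in the 57SCLC tumors.

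Members lower than in Lung were led by Cxcl15, at 22049, 29868 and 36007 in the lungs. It was 60.1-fold lower in the 46LCNEC tumors (log2 fold change -6.35 ± 0.73 (SE), limma adjusted p = 0.000424) and at least 19591-fold lower in the 57SCLC tumors (log2 fold change -14.81 ± 0.21 (SE), limma adjusted p = 2.03e-08). Lung epithelium markers (Sftpc, Sftpb, Sftpa1, Ager and Scgb1a1) summed to 343554 to 450751 in the lungs and to at most 205 in any tumor. Ackr2, at 3479, 3001 and 2963 in the lungs, was 45.8-fold and 58.9-fold lower (-5.56 and -5.85 on the log2 scale). Endothelial markers summed to 71005 to 81267 in the lungs, 5231 to 8946 in the 46LCNEC tumors and 2562 to 3519 in the 57SCLC tumors, and all 4 were called lower in both. The part of these cells in the level of Cxcl15 or Ackr2 was not tested.

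Several receptors were also lower. Ccr7, which leads dendritic cells and T cells to lymph nodes, was at 1229.6, 936 and 1119 in the lungs and at 47.7, 9.47 and 145 in the 46LCNEC tumors (-4.69, a call lost without tumor 312 or whichever lung was left out), and it was lower in the 57SCLC tumors too (-4.96). Cxcr5, the receptor of Cxcl13 on B cells, was at 505, 447 and 385 in the lungs, 25.2, 13.7 and 52 in the 46LCNEC tumors and 4.79, 15.6 and 15.9 in the 57SCLC tumors (-4.02 and -5.24). Ccr6, the receptor of Ccl20, was lower in both (-4.03 in 46LCNEC and -4.98 in 57SCLC). Cxcr1 and Cxcr2, carried by neutrophils, were lower in the 57SCLC tumors, at -6.16 and -5.34 on the log2 scale, and in the 46LCNEC tumors, at -3.84 and -2.16, where the Cxcr2 call was lost without tumor 312, CT3 or CT5. Neutrophil markers summed to 1708 to 4136 in the lungs, 53.8 to 366 in the 57SCLC tumors and 501 to 1928 in the 46LCNEC tumors. The 3 tested were called lower in 57SCLC_allo, while in 46LCNEC_allo 0 were called by limma or edgeR, 1 by DESeq2 and 3 at an unadjusted p under 0.05 in limma. Cxcl12, at 18657, 12261 and 13901 in the lungs, was lower in the 57SCLC tumors (18.6-fold, log2 fold change -4.27 ± 0.28 (SE), limma adjusted p = 4.44e-06), as was Ackr3 (-3.43), and neither was called in 46LCNEC_allo. T and NK cell markers (Cd3e, Cd3d, Cd3g, Cd8a, Cd4, Ncr1 and Nkg7) summed to 2157 to 2599 in the lungs and to 109.9, 68.4 and 1468 and 373, 229 and 281 in the tumors of 46LCNEC and 57SCLC. B cell markers, with Ms4a1 listed at 0 throughout, summed to 1241 to 1546 in the lungs, 27.8 to 187 in the 46LCNEC tumors and 53.3 to 108 in the 57SCLC tumors. The part of these cells in the lower levels was not tested.

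**Figure D5:**
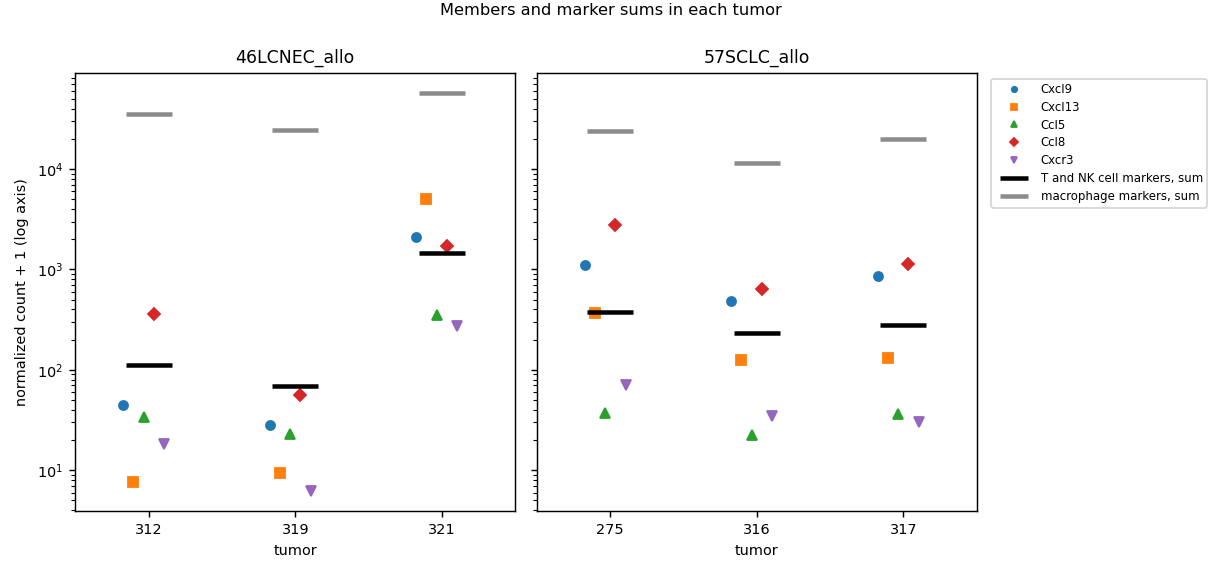
Level of 5 chemokine and receptor genes and of the summed T and NK cell and macrophage markers in each of the 6 tumors, as normalized counts on log axes. Points are single tumors of 46LCNEC_allo (312, 319 and 321) and 57SCLC_allo (275, 316 and 317); tumor 321 stands above 312 and 319 in Cxcl9, Cxcl13, Ccl5 and Cxcr3 and in the T and NK cell markers.

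In the members, tumors of the same line varied among themselves more than cultures or lungs. Among members with a mean of at least 10, the median ratio of the highest to the lowest library was 3.53 in 46LCNEC_allo (35 members) and 2.32 in 57SCLC_allo (34 members), against 1.37 in 46LCNEC_cell, 1.55 in 57SCLC_cell and 1.46 in Lung. Tumor 321 was the highest of the 46LCNEC tumors in 20 of the 35 members and tumor 319 the lowest in 25. Tumor 275 was the highest of the 57SCLC tumors in 23 of the 34 members and tumor 316 the lowest in 24. The same ratios and counts over all genes are not given here, so they are not read as particular to the members. The chi-square per degree of freedom between libraries, over all genes with enough reads, was 92.6 to 133 in 46LCNEC_allo and 7.28 to 22.8 in 46LCNEC_cell. It was 17.8 to 43.8 in 57SCLC_allo, 2.80 to 144 in 57SCLC_cell and 27.2 to 28.4 in Lung. Macrophage, neutrophil and T and NK cell markers had tumor 321 highest and 319 lowest in 46LCNEC_allo and tumor 275 highest and 316 lowest in 57SCLC_allo. Leukocyte markers had this order in 46LCNEC_allo only and endothelial markers in 57SCLC_allo only. Fibroblast, dendritic cell and B cell markers had it in neither, and in 46LCNEC_allo tumor 321 was lowest in the fibroblast markers. The part of these cells in the spread was not tested.

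Tumor 321 stood far above the other 46LCNEC tumors in some members, of which 4 are given here that were chosen after their values were seen. Cxcl13, which draws B cells through Cxcr5, was at 6.62, 8.42 and 4988 in tumors 312, 319 and 321. Cxcl9 and its receptor Cxcr3, found on activated T cells, were at 43.7, 27.4 and 2118 and 17.2, 5.26 and 273. Ccl5, a ligand made by T and NK cells among others, was at 33.1, 22.1 and 352. The T and NK cell markers were at 109.9, 68.4 and 1468 in the same tumors, and their part in the levels was not tested. In the 57SCLC tumors Cxcl13 was at 369, 123 and 132, Cxcr3 at 69.4, 34 and 29.5 and Ccl5 at 35.9, 21.2 and 35.2.

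Leaving out tumor 321 changed what the comparisons of 46LCNEC_allo gave for these genes. Between the allografts neither Cxcl9 (2.48, limma adjusted p = 0.217) nor Cxcl13 (1.36, limma adjusted p = 0.658) was called. Without tumor 321 both were called higher in 57SCLC_allo, Cxcl9 at 4.44 (limma adjusted p = 0.000364) and Cxcl13 at 4.43 (limma adjusted p = 0.00116). Against Lung, Cxcl13 in 46LCNEC_allo had a log2 fold change of -0.33 (limma adjusted p = 0.913), although its mean of 1668 ± 2876 (SD, n = 3) exceeded that of Lung, 88.4 ± 5.68. Without tumor 321 it was called lower than in Lung, at -3.4 (limma adjusted p = 0.000221), and the members called lower in that comparison rose from 14 to 20, with Ccl5, Ccl22, Ccr4, Ccr8, Cxcl13 and Cxcr3 added. Without CT3 or without CT5 they were 9. Ccl8, at 360.3, 54.7 and 1714, had a log2 fold change of 2.42 against Lung (limma adjusted p = 0.104) and was called without tumor 319, at 3.69 (limma adjusted p = 0.00418).

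The genes through which chemokine receptors signal were read beside the members. A list of 30 held Gi and beta-gamma subunits, arrestins and receptor kinases, and leukocyte effectors such as Pik3cg, Dock2, Rac2 and Vav1. Between 46LCNEC allografts and cells 16 of the 28 tested were called higher, beside 14.4% of all genes, with a median log2 fold change of 1.46 against -0.001 over all genes tested. None was called lower by limma, edgeR or DESeq2, and 1 was lower at an unadjusted p under 0.05 in limma. As with the members, genes that passed the filter only through the tumors could not be called lower. Between 57SCLC allografts and cells 14 of 29 were called higher, beside 14.4% of all genes (median 0.827 against 0.004), with the same counts for the lower direction. Rac2 and Dock2, effectors of leukocyte movement, rose in both lines, by 10.21 and 8.98 on the log2 scale in 46LCNEC and by 7.78 and 6.55 in 57SCLC. Arrb2, an arrestin found in many cell types, rose less (1.56 and 1.01). Between the cultures 3 of 19 were higher in 57SCLC_cell, led by Prex1, an exchange factor for Rac, at 4.32, and 5 were lower, beside 23.9% and 22.2% of all genes.

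The same list was lower in 57SCLC tumors than in Lung for 15 of 29 genes, beside 26.9% of all genes (median -1.06 against -0.087), and in 46LCNEC tumors for 3 of 29, beside 22.1% of all genes (median -0.665 against -0.137). Between the allografts 4 of 29 were lower in 57SCLC_allo, a share like the 14.2% of all genes, and the change from cells to allograft was smaller in 57SCLC for 3 of 29, beside 6.78% of all genes. In these 4 comparisons 0 were called higher by limma. At an unadjusted p under 0.05 limma had 2 higher in 46LCNEC_allo than in Lung, 3 in 57SCLC_allo than in Lung, 3 between the allografts and 4 in the difference between the lines. DESeq2 called 1, 0, 1 and 1 of them in that order, and edgeR 1, 0, 0 and 1.

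Cytokines known to induce chemokines rose from cells to allografts in part. Of 10 inducers, 6 were tested in each line and 3 were called higher, beside 14.4% of all genes in each line, Tnf and Il1b in both, with Il6 in 46LCNEC and Ltb in 57SCLC. In 57SCLC_allo 4 of 6 were lower than in Lung, beside 26.9% of all genes. In 46LCNEC_allo 0 of 7 were called against Lung by limma or edgeR, 2 were lower by DESeq2 and 3 at an unadjusted p under 0.05 in limma. Called by limma, edgeR or DESeq2 were 0 of 2 inducers between the cultures, 0 of 6 between the allografts and 0 of 6 in the difference between the lines, with 0, 1 and 1 at an unadjusted p under 0.05 in limma. Of 11 family genes outside the naming rule, 4 (Ccl21a, Ccl21b, Ccl21d and Ccl27b) were listed at 0 throughout. Among the 6 tested between allografts and cells, 4 were called higher in 46LCNEC and 3 in 57SCLC, beside 14.4% of all genes in each line. Lower than in Lung were 2 of 6 in 46LCNEC_allo, beside 22.1% of all genes, and 4 of 6 in 57SCLC_allo, beside 26.9%. Between the cultures 2 of 4 were higher and 1 lower in 57SCLC_cell, and between the allografts 1 of 6 was lower in 57SCLC_allo, shares to be read against the 23.9%, 22.2% and 14.2% of all genes. Platelet factor 4 (Pf4) rose in both lines, by 7.44 and 7.65 on the log2 scale, as did the atypical receptor Ccrl2 (4.26 and 5.9). Cmklr1, the receptor of chemerin, rose in 46LCNEC (5.98) and differed between the lines in its change (-5.54).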

How the data were processed

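RNA-seq of 15 mouse samples (150-base paired reads) was analyzed. The authors counted reads per gene with featureCounts on GRCm39 with GENCODE M27 and divided them by DESeq2 size factors, and the deposited matrix holds these normalized counts (a signal per gene, not whole counts). Whole reads were recovered from the step that 1 read is worth in each library (0.521 to 2.39 normalized counts), with every value within 0.01 of a whole multiple. The strand setting of the counting is not given in the sources used here. The other deleted gene and 1 member are not reported here, and counts and sums over all members include that member. The 1347 genes with no name were tested and not named.

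Each comparison was fitted with limma (3.58.1) with a mean-variance trend on log2(normalized count + 1), keeping genes that reached 10 normalized counts in 3 or more samples, with Benjamini-Hochberg adjustment over all genes tested. Calls required an adjusted p no higher than 0.01 and a change of 1 or more on the log2 scale, thresholds of the study's methods. The interaction used 1 mean for each of 4 groups. Alternatives were edgeR (4.0.16, quasi-likelihood) and DESeq2 (1.42.0) on the recovered reads, scaling by library size only, no filter, a pseudocount of 5, 1 model over all 15 samples, a threshold of 0.05, a replicate block and the omission of each sample. With 1 sample left out, the filter asked for 2 samples. R 4.3.3 and Python 3.11.15 were used, and the scripts were tested on simulated data. Bounds use a floor of 3 reads over the group, and intervals are exact at 95%. Coordinates and exon lengths are from GENCODE M39, and promoters from a RefSeq table matched to GRCm39.

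The members, gene lists and tests were chosen with earlier results of these data known. Genes named were the 5 ligands and 3 receptors with the highest mean in each group if above 20, every member called between the cultures or in the interaction, the 5 largest called changes in each direction elsewhere, and the partners of those. Arrb2, Prex1, Rac2, Dock2, Cmklr1, Ccrl2 and Pf4, and members named for the spread among tumors or for a lost or gained call, were picked from the lists after their values were seen.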

Additional observations from a re-analysis of the deposited data

Results flagged for a closer look

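The change from cells to allograft differed between the lines, by the limma interaction, in 13 members. The difference, 57SCLC minus 46LCNEC on the log2 scale, was 9.05 for Ccl9, 7.235 for Cxcl14, 6.91 for Ccl7, 5.88 for Ccl24, 4.11 for Cxcl12, 4.08 for Cxcl1, 3.61 for Cxcl2 and 1.82 for Ccr3. It was -4.61 for Cx3cr1, -4.54 for Ccr2, -3.01 for Cx3cl1, -2.67 for Cxcr4 and -2.58 for Ackr2.

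Called changes against Lung of opposite direction, together with a call between the allografts, marked 3 members. The difference between the allografts, 57SCLC_allo against 46LCNEC_allo on the log2 scale, was -3.65 for Cx3cr1, -3.55 for Cx3cl1 and 5.88 for Ccl24. The limma call of this difference was part of the rule, so it adds no support. The same lungs enter both comparisons with Lung.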

How the results depend on the processing

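The 149 single-gene fits gave 2025 values under the alternatives. Of these 1887 kept their direction and side of the threshold, 115 values of 31 results kept the direction and lost the call, 11 gained a call and 12 turned. The 12 belonged to 6 results without a call. Cxcl16 between the cultures was at 0.059 with library size only and ranged from -0.413 to 0.233 with 1 sample left out, positive without flask C. Cxcl9 in 46LCNEC_allo against Lung ranged from -0.95, without tumor 321, to 2.16. Cxcl13 between the allografts was at -3.01 with edgeR and ranged from -0.248, without tumor 312, to 4.43, without tumor 321. Cxcl13 in 46LCNEC_allo against Lung was at 4.3 with edgeR and ranged from -3.4, without tumor 321, to 1.28, without tumor 312. Between the allografts Cxcl2 was at 0.069 with library size only and ranged from -0.541, without tumor 312, to 0.094, without tumor 319, and Cxcl5 ranged from -2.18, without tumor 319, to 0.013, without tumor 316. Shares of level per kilobase without each library were added after seeing the data.

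Among the counts of members, those called higher in 57SCLC_cell than in 46LCNEC_cell (1) became 2 with library size only, 4 with no filter and 3 in 1 model of all 15 samples, and 1 to 3 with 1 sample left out. Those higher in 46LCNEC_allo than in its cells (17) became 26 in 1 model of all 15 samples, and the 1 lower became 0 with edgeR and ranged from 0 to 1 with 1 sample left out. Between the allografts those higher (2) became 1 with DESeq2, with no filter and in 1 model, and ranged from 1 to 3 with 1 sample left out, and those lower (10) from 6 to 9. In 46LCNEC_allo against Lung those higher (6) became 10 with DESeq2 and ranged from 6 to 10, and those lower (14) from 9 to 20. In 57SCLC_allo against Lung those higher (7) ranged from 4 to 7. The causes were not tested. With 1 sample left out there were fewer samples, and the filter asked for 2 of them rather than 3.

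Library size only shifted the median log2 fold change of all genes by 0.268 between the allografts, 0.212 in 57SCLC_allo against Lung and 0.240 between the cultures, and other comparisons by under 0.1. Dishes and flasks share letters, but the deviations of same-letter cultures correlated at 0.0916, -0.0837 and -0.0062, so the letters were not taken as pairs. With a replicate block between the cultures 1 member was called higher and 9 lower, as without it.

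Depth limits members near 0, since 1 read was worth 0.521 to 2.39 normalized counts and tumor 275 had the fewest reads. With 3 samples a group, small differences are not detectable.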
